A study of Homo sapiens with 4 samples.

Results

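The genes IFIT1, IFIT2, IFIT3 and IFIT5, which encode the interferon-induced proteins with tetratricopeptide repeats, were examined in AGS cells after MFAP2 knockdown. They were found by gene name in the deposited tables, where they make up 4 of 47251 genes and 7 of 180500 transcripts. AGS is a gastric cancer cell line of epithelial origin, and RNA was sequenced from 2 libraries labelled sh-MFAP2 (genotype MFAP2 silencing) and 2 labelled sh-control, named control here. In the sh-MFAP2 cells a short hairpin RNA (shRNA) against MFAP2, a protein of extracellular microfibrils, was expressed from a lentivirus, and the controls carried a scrambled shRNA in the same kind of virus. Cells of both groups went through puromycin selection, so the controls share the virus, a hairpin and the selection with the knockdown. The titles of both sh-MFAP2 libraries name the same shRNA, whereas their descriptions number it 1 and 2, so whether the group rests on 1 hairpin or on 2 cannot be told apart. Whether the line was grown from 1 clone, and whether the replicates came from separate cultures, is not given in the sources used here, so that p-values measure only the spread between these libraries.

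IFIT proteins are RNA-binding proteins that are scarce in resting cells and are induced by type I and type III interferons. An interferon bound to its receptor activates the kinases JAK1 and TYK2, and their signal leads to the assembly of the factor ISGF3, in which IRF9 binds the DNA. ISGF3 binds the interferon-stimulated response element (ISRE) in the promoters of its targets, and IRF3, activated by sensors of foreign RNA, can switch on several IFIT genes without interferon. IFIT1 recognises mRNA whose cap lacks ribose methylation and blocks its translation. IFIT3 binds to IFIT1 and stabilises it, IFIT2 joins the same complexes and can promote apoptosis, and IFIT5 acts as a monomer that binds RNA with a triphosphate end.

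All 4 genes lie on the plus strand of chromosome 10 in GRCh38 (GENCODE 29). The listed transcripts with a value above 0 ran from 89301955 to 89309276 for IFIT2, from 89327894 to 89340971 for IFIT3, from 89392546 to 89406486 for IFIT1 and from 89414586 to 89421001 for IFIT5. LIPA, the gene of a lysosomal lipase on the minus strand, spans most of this region, from 89213569 to 89414557. No exonic base of the 4 IFIT genes was shared with an exon of another annotated gene on either strand.

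Promoter windows of 300 bases, from RefSeq on GRCh38.p14, matched 3 of the 4 genes, IFIT1, IFIT3 and IFIT5. They were searched on both strands for the core of the ISRE, the letters GAAA, any 2 bases and GAAA again, which read TTTC, any 2 bases and TTTC on the other strand, where overlapping matches count separately. The core was found in all 3 genes, compared with 1195 of 27305 genes with a window (4.38%), and in 26 of the 35 matched genes of a list of other interferon-stimulated genes (74.3%). One run per start is shown because the ISRE is the element that ISGF3 is known to bind, and further matches in the same windows are not shown. Each run is 30 bases of the plus strand, with the matches in capitals.
IFIT1, chr10:89392504-89392533: tagTTTCACTTTCcccTTTCGGTTTCccta
IFIT3, start of the upstream first exon, chr10:89327865-89327894: tttaaattagTTTCACTTTCcagtttcctc
IFIT3, start of the downstream first exon, chr10:89332468-89332497: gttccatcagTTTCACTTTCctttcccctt
IFIT5, chr10:89414513-89414542: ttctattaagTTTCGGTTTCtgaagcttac

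The IFIT1 run holds 2 matches, between 116 and 94 bases before the RefSeq start. IFIT3 has 2 alternative first exons, each with its own window and 2 matches, and the matches shown lay 122 to 113 and 51 to 42 bases before their starts. IFIT5 had 3 matches, of which that shown lay 45 to 36 bases before the start and the other 2 lay nearer, from 19 bases before the start to just past it. A match is a description of the letters in the window, and no binding was measured here.

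The unit of the tables was not named by the authors and was taken as FPKM, fragments scaled by transcript length and library depth. Levels can be compared between genes only roughly, since the gene value of IFIT1 understated its transcript sum, as given below. From the step between low values, about 54920000 to 75170000 reads lay behind each library. In such bulk RNA, fewer cells that express a gene and less of its RNA per cell cannot be told apart. MFAP2 itself had a value of 0 in each knockdown library and of 0.0116 and 0.0138 FPKM in the controls. These values are too low to check the knockdown here, which the study reports from western blot and quantitative PCR. The epithelial markers EPCAM, KRT8, KRT18 and KRT19 were at 193 to 803 FPKM in every library. The remaining epithelial marker, CLDN4, was at 47.1 and 0.0151 FPKM in the knockdown and at 0.291 and 0.551 FPKM in the controls. The sum of these 5 epithelial markers was 1732 to 1982 FPKM. The sum of 4 leukocyte markers was 3.22 and 3.27 FPKM in the knockdown and 8.11 and 7.33 FPKM in the controls, nearly all of it from CD68, with PTPRC at no more than 0.0175 FPKM. The sum of 4 fibroblast markers was 2.34 and 2.09 FPKM against 4.37 and 4.94 FPKM, nearly all from COL1A1, with COL1A2 and DCN listed at 0 in 3 of the 4 libraries each. The part of these markers in the results for IFIT genes was not tested.

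IFIT5 was the only member whose groups did not overlap. IFIT5 read 7.85 FPKM in replicate 1 and 8.76 FPKM in replicate 2 of sh-MFAP2, and 1.13 FPKM in replicate 1 and 0.0531 FPKM in replicate 2 of control. The knockdown libraries were thus high and close to each other, and both controls were low but far apart. The mean was 8.31 ± 0.644 FPKM (SD, n = 2) in sh-MFAP2 and 0.591 ± 0.760 FPKM (SD, n = 2) in control. On the scale of log2(FPKM + 1), which understates the change of low values, the difference was 2.63 (standard error 0.385), a 6.21-fold higher value of FPKM + 1. IFIT5 reached the mean of 1 FPKM needed for testing only through sh-MFAP2, the group where it was high, so that its test is not independent of that filter. With limma, the unadjusted p was 0.00296 for IFIT5 and the adjusted p, by Benjamini-Hochberg over 9873 genes, was 0.238. IFIT5 therefore did not pass the thresholds of the study's methods (p under 0.01 and adjusted p under 0.05), which 27 of the 9873 genes passed in limma (0.273%). The study's methods name another test, and the 27 are not the study's own count. Groups that did not overlap with sh-MFAP2 higher were found for 17.5% of the genes tested, and an unadjusted p under 0.01 for 3%. Leaving out each library in turn moved the difference of IFIT5 between 2.13 and 3.14, and a pseudocount of 0.1 raised it to 4.28 with an adjusted p of 0.367 in limma. Control replicate 2, the lowest value, corresponded to about 16 reads, compared with 269 reads in control replicate 1 and 1932 reads in each sh-MFAP2 library.

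IFIT1 was high in replicate 1 and low in replicate 2 of both groups. It had 58.9 and 3.43 FPKM with the MFAP2 shRNA, compared with 35.8 and 3.30 FPKM with the scrambled shRNA. Within a group, replicate 1 exceeded replicate 2 by 17.2 times in sh-MFAP2 and by 10.9 times in control, whereas the group means differed by 1.59 times. The difference between the groups was 0.37 on the log2(FPKM + 1) scale with a standard error of 1.78 (limma, IFIT1 adjusted p = 0.939), far within the spread between replicates. Its direction changed to -1.51 without sh-MFAP2 replicate 1 and to -1.18 without control replicate 2.

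IFIT3, the partner of IFIT1, followed another pattern over the same libraries. IFIT3 read 0.605 and 35.0 FPKM with the MFAP2 shRNA, compared with 9.52 and 0.847 FPKM with the scrambled shRNA. The highest and the lowest value were both in sh-MFAP2, 57.9 times apart, and the controls lay between them. The log2(FPKM + 1) difference was 0.79 with a standard error of 1.87 (limma, IFIT3 adjusted p = 0.865). It changed direction without sh-MFAP2 replicate 2, at -1.46, and without control replicate 2, at -0.47. In sh-MFAP2 replicate 1, where IFIT1 was at its highest, IFIT3 was at its lowest.

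IFIT2 was near 0 in all libraries but control replicate 1. It had 0.131 and 0.396 FPKM with the MFAP2 shRNA, compared with 6.03 and 0.135 FPKM with the scrambled shRNA. It passed the limit of a mean of 1 FPKM for testing only through that library. The log2(FPKM + 1) difference was -1.17 with a standard error of 0.969 (limma, IFIT2 adjusted p = 0.619), and without control replicate 1 it was 0.15. The low values were not empty, since about 27.9, 75.8 and 35.5 reads lay behind sh-MFAP2 replicates 1 and 2 and control replicate 2, against 1251 reads behind control replicate 1.

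**Figure D1:**
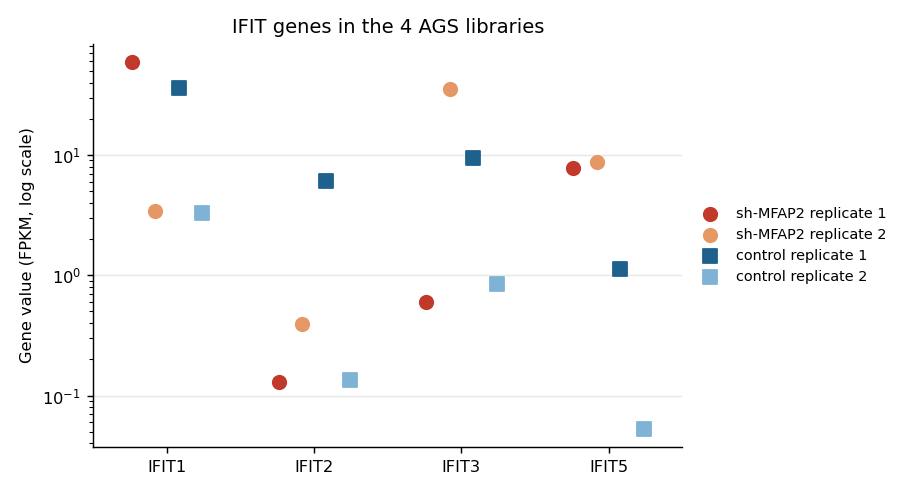
Value of each IFIT gene (FPKM, log scale) in the 4 AGS libraries, with circles for sh-MFAP2 and squares for control, 1 point per library. Only IFIT5 has both sh-MFAP2 libraries (7.85 and 8.76 FPKM) above both controls (1.13 and 0.0531 FPKM), and each of the other 3 genes overlaps between the groups.

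In the mean gene value over 4 libraries the order of levels was IFIT1 (25.4 FPKM), IFIT3 (11.5 FPKM), IFIT5 (4.45 FPKM) and IFIT2 (1.67 FPKM). This order held in none of the libraries, and the IFIT1 value understates its transcript sum, given below. In sh-MFAP2 replicate 1 the order was IFIT1, IFIT5, IFIT3 and IFIT2, and in sh-MFAP2 replicate 2 it was IFIT3, IFIT5, IFIT1 and IFIT2. In both controls it was IFIT1, IFIT3, IFIT2 and IFIT5. For each pair of neighbours in the mean order, the ranges over the 4 libraries overlapped, and levels were not tested between members. The range of IFIT5 includes the difference between its groups. IFIT1B, the closest paralogue of IFIT1, was listed at 0 in 3 libraries and at 0.0186 FPKM in sh-MFAP2 replicate 2.

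The difference between replicates 1 and 2 on the log2(FPKM + 1) scale was 3.76 in sh-MFAP2 and 3.10 in control for IFIT1. It was -4.49 and 2.51 for IFIT3, -0.30 and 2.63 for IFIT2, and -0.14 and 1.02 for IFIT5. Replicates differing by at least 2, a 4-fold change in FPKM + 1, were thus found for 3 of the 4 members in at least 1 group, and for IFIT1 and IFIT3 in both groups. Of all genes tested, 248 (2.51%) showed this in at least 1 group and 51 (0.517%) in both. Differences between replicates were part of the rule that picked out these genes, so this comparison is a description and not separate support. IFIT2 also passed the filter for testing only through control replicate 1, the library behind its difference in control. A difference as large as that of IFIT3 within sh-MFAP2 was reached by 14 genes tested, IFIT3 included, and one as large as that of IFIT1 within control by 44 genes, IFIT1 included.

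**Figure D2:**
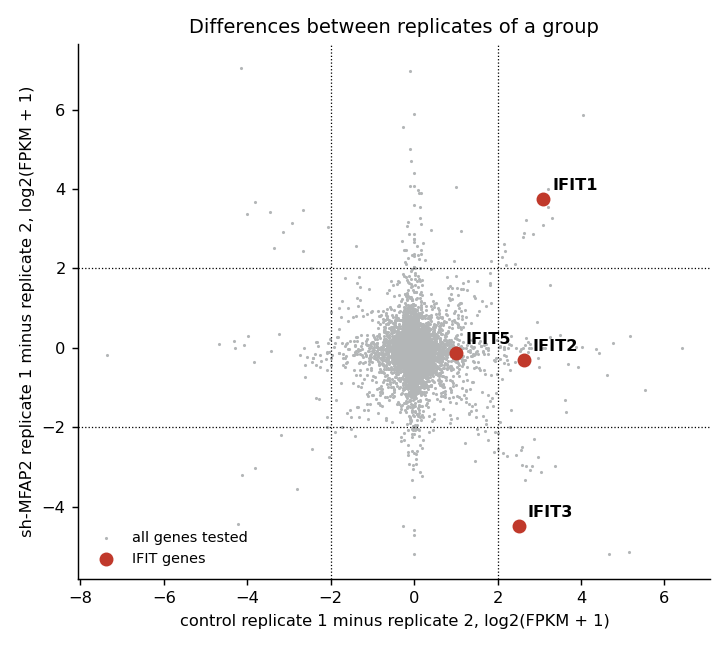
Replicate 1 minus replicate 2 on the log2(FPKM + 1) scale in control (horizontal axis) and in sh-MFAP2 (vertical axis) for the 9873 genes tested (grey) and the 4 IFIT genes (red), with dotted lines at 2 and -2. IFIT1 (3.10 and 3.76) and IFIT3 (2.51 and -4.49) lie beyond the lines in both groups and IFIT2 (2.63 and -0.30) only in control.

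The deposited transcript values gave the listed transcript to which each gene value was mainly assigned. For IFIT1 the shorter transcript ENST00000371804 (1880 bases, 2 exons) had 140 and 5.45 FPKM with the MFAP2 shRNA, compared with 87.8 and 5.34 FPKM with the scrambled shRNA. The longer transcript ENST00000546318 (4613 bases, 3 exons), whose last exon extends the same 3' exon, had 1.64 and 1.21 FPKM with the MFAP2 shRNA, compared with 0.0728 and 1.12 FPKM with the scrambled shRNA. The difference between replicates thus lay mainly in the shorter transcript, which made up 98.8% and 99.9% of the transcript sum in the replicates with high values and 81.8% and 82.6% in the others. The deposited gene value of IFIT1 was the length-weighted sum of these transcripts over 4613 bases, so it understated the transcript sum, which was 142, 6.66, 87.9 and 6.46 FPKM. Summing transcripts left the difference between the groups at 0.36 (limma, IFIT1 adjusted p = 0.945).

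IFIT3 had 2 transcripts that differ in the first exon and share the second. The first exons hold 185 bases (upstream) and 144 bases (downstream), against 2311 bases in the shared exon. The split between the 2 transcripts is therefore an estimate that rests on a small part of their sequence, and use of the first exons was not tested. The transcript from the downstream first exon, ENST00000371811, had 0.650 and 16.5 FPKM with the MFAP2 shRNA, compared with 0.324 and 0.474 FPKM with the scrambled shRNA. The transcript from the upstream first exon, ENST00000371818, had 0 and 20.8 FPKM with the MFAP2 shRNA, compared with 9.75 and 0.429 FPKM with the scrambled shRNA. Both were high in sh-MFAP2 replicate 2, and only the upstream form was high in control replicate 1, where it made up 96.8% of the transcript sum. The share of the upstream form was 55.8% in sh-MFAP2 replicate 2 and 47.5% in control replicate 2, and that transcript was listed at 0 in sh-MFAP2 replicate 1. IFIT2 and IFIT5 were each carried by 1 transcript, ENST00000371826 (3489 bases) and ENST00000371795 (4015 bases), and the second listed IFIT2 transcript was at 0 in every library. Of 22312 transcripts tested with limma and Benjamini-Hochberg adjustment, 0 were called (0%), although 1704 (7.64%) had an unadjusted p under 0.05. The IFIT5 transcript was among the latter (unadjusted p = 0.00401, adjusted p = 0.332 in limma), and the other IFIT transcripts tested were not.

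**Figure D3:**
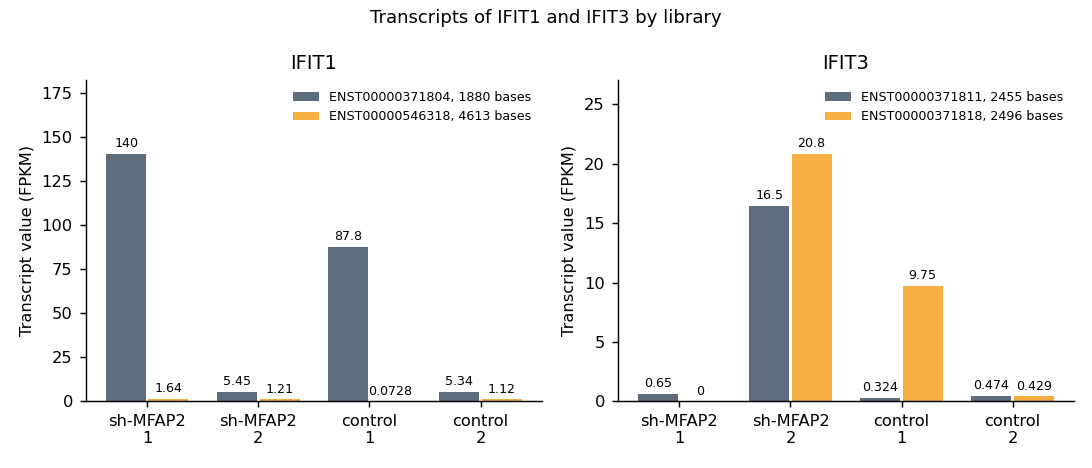
Values (FPKM, linear scale) of the 2 listed transcripts of IFIT1 and of IFIT3 in each library, 1 bar per transcript and library. The shorter IFIT1 transcript carries nearly all of the high values of both replicates 1 (140 and 87.8 FPKM). The high IFIT3 values are assigned to both first exons in sh-MFAP2 replicate 2 but to the upstream one in control replicate 1.

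The 4 genes share a structure of few exons. In the transcripts with values, the longest exon was the last and held at least 90.9% of the transcript, and in the 2-exon transcripts it held all but 5 coding bases. Among the other genes tested, structure and replicate differences moved together. The classes of structure were not matched for level. A gene that reaches the mean of 1 FPKM through 1 library alone has a large replicate difference for that reason. Replicates differed by at least 2 on the log2(FPKM + 1) scale, in at least 1 group, for 36.7% of 169 genes with a single exon. The share was 14.6% for 349 genes with more exons of which the longest held at least 90% of the transcript, 2.86% for 4264 genes where it held 50% to under 90%, and 0.138% for 5074 genes where it held less. Other genes of the pathway lists with a longest exon of at least 90% were SAMD9, an interferon-induced antiviral gene, which had 0.0414 and 0.254 FPKM in the knockdown libraries and 0.235 and 5.59 FPKM in the controls, and IFNB1, a single-exon gene whose replicates differed by -0.11 in sh-MFAP2 and 0.10 in control. The epithelial gene CLDN4, also with a single exon, had 47.1 FPKM in sh-MFAP2 replicate 1 and 0.0151 to 0.551 FPKM in the other 3 libraries. The part of exon structure in the differences of the IFIT genes was not tested.

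**Figure D4:**
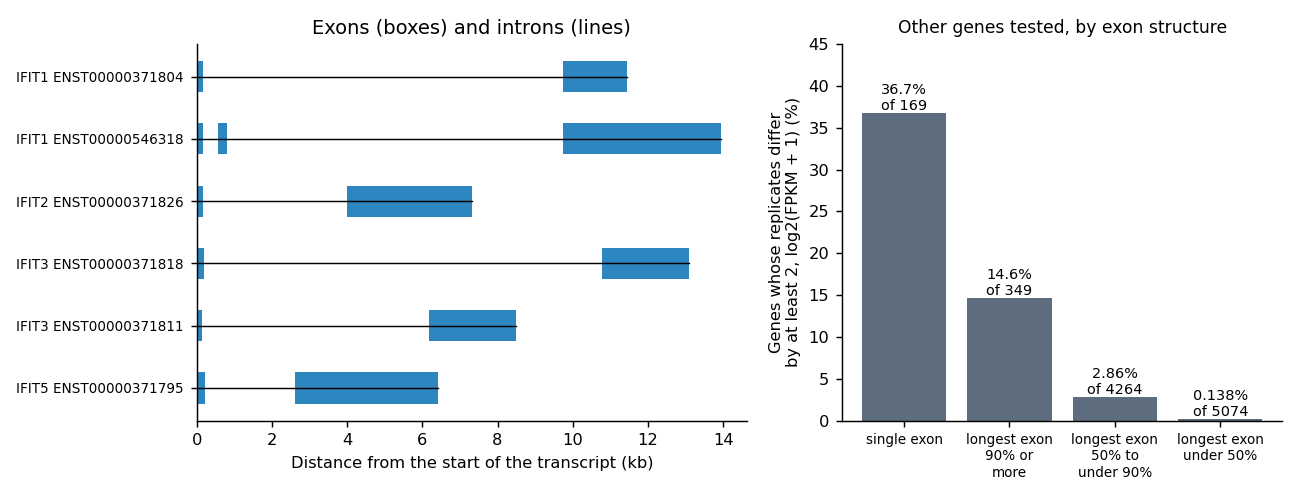
Left, exons (boxes) and introns (lines) of the 6 IFIT transcripts with values, by distance from the start of the transcript (kb). Right, share of other genes tested whose replicates differed by at least 2 on the log2(FPKM + 1) scale in at least 1 group, by the share of the transcript in its longest exon, which falls from 36.7% of 169 single-exon genes to 0.138% of 5074 genes with a longest exon under 50%.

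Reads shared between members can move values from gene to gene. In the coding sequences, identical bases made up 79.0% of aligned bases between IFIT1 and IFIT1B, 72.1% between IFIT2 and IFIT3, 66.2% between IFIT1 and IFIT5 and 60.3% between IFIT2 and IFIT5. The longest identical run in the transcripts was 72 bases for IFIT1 and IFIT1B and at most 26 bases between any pair of the 4 members. Runs of at least 50 bases identical to annotated transcripts of other genes covered 7.23% of the shorter IFIT1 transcript, from IFIT1B and the pseudogene IFIT6P, 10.9% of IFIT3, with 175 genes, and no base of IFIT2 or IFIT5. Their part in the values was not tested, and the read length is not given in the sources used here.

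For each member the genes whose centred log2(FPKM + 1) values over the 4 libraries had the smallest root mean square difference from its own were identified. Nearest to IFIT1 were a gene known only by its clone name (difference 0.245), IER3 (0.288), an early response gene with 85.4 and 4.37 FPKM in the knockdown libraries and 72.5 and 6.98 FPKM in the controls, and FZD2 (0.301), a Wnt receptor gene. Nearest to IFIT2 were RP11-500C11.3 (0.128), the small nuclear RNA gene RNU5A-1 (0.130) and HCP5 (0.167), a noncoding gene of the MHC region. Nearest to IFIT3 were TRAPPC2P1 (0.463), ZNF524 (0.602) and MESDC1 (0.652), and nearest to IFIT5 were HIST2H2AA4 (0.301), a histone gene with a near-identical copy, DNAAF2 (0.305) and ING2 (0.345). In their most abundant transcripts, 6 of these 12 genes had a single exon, compared with 169 of 9856 genes tested other than the IFIT genes. The 12 were picked by their values, replicate differences included. As large replicate differences were more frequent among single-exon genes (36.7%), this count is not a separate observation. No IFIT gene was among the 3 nearest of another, and with 4 libraries such likeness is a description only.

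The rest of the interferon pathway was examined for comparison, with lists ordered by role. Among the ligands, IFNL1, a type III interferon, had 5.83 and 6.28 FPKM with the MFAP2 shRNA, compared with 3.49 and 3.98 FPKM with the scrambled shRNA, a log2(FPKM + 1) difference of 0.58 (limma, IFNL1 adjusted p = 0.330). IFNB1, the type I interferon made by most cell types, had 1.26 and 1.45 FPKM against 1.08 and 0.951 FPKM. Below the limit for testing, IFNL2 had 1.12 and 0.919 FPKM against 0.470 and 0.321 FPKM, and IFNL3 1.18 and 0.918 FPKM against 0.447 and 0.537 FPKM. IFNL2 and IFNL3 are near-identical copies. IFNA2, IFNK and IFNG were listed at 0 in every library, and IFNA1 in all but control replicate 2 (0.0116 FPKM). IFNE was at 0 in each knockdown library and at 0.619 and 0.579 FPKM in control.

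Of 16 genes for receptors, kinases and factors, 15 were tested and 0 called by limma, with a median difference of -0.01. Of all genes tested, 12.3% had an unadjusted p under 0.05, and 3.89% had it with sh-MFAP2 higher. In this list 2 had it, both with sh-MFAP2 higher. These were IRF7, the factor that amplifies interferon production, with 21.3 and 19.7 FPKM against 11.3 and 12.1 FPKM (difference 0.76, IRF7 adjusted p = 0.238 in limma), and IRF9, the DNA-binding part of ISGF3, with 12.6 and 14.0 FPKM against 8.70 and 8.42 FPKM (difference 0.58, IRF9 adjusted p = 0.320 in limma). STAT2, another part of ISGF3, had 3.30 and 5.22 FPKM against 4.16 and 4.74 FPKM, so that its groups overlapped. Of 7 RNA sensors, 5 were tested and 0 called by limma. At an unadjusted p under 0.05, 1 was higher in sh-MFAP2, compared with 3.89% of all genes tested. That gene was IFIH1, which encodes the sensor of long double-stranded RNA, with 16.4 and 17.4 FPKM against 12.5 and 11.8 FPKM (IFIH1 adjusted p = 0.347 in limma).

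In a list of other interferon-stimulated genes, replicates lay 0.251 apart in sh-MFAP2 and 0.0997 apart in control in the median, on the log2(FPKM + 1) scale, against 0.204 and 0.113 over all genes tested. Of 42 genes, 34 were tested, 28 higher and 6 lower in sh-MFAP2, with a median difference of 0.40 on the log2(FPKM + 1) scale, compared with -0.05 and 42% higher over all genes tested. Limma called 0 of the 34, 13 were higher at an unadjusted p under 0.05, compared with 3.89% of all genes tested, and 1, BST2, was lower, compared with 8.41%. The count of 13 rose or fell with the library left out, while the median difference ran from 0.32 to 0.46. In 24 of the 34 both sh-MFAP2 libraries lay above both controls, compared with the 17.5% given above, and in 1 both lay below, compared with 31.4% of all genes tested. By smallest p these were led by ISG15, a ubiquitin-like modifier (difference 1.20), OASL, a relative of the oligoadenylate synthetases (0.89), the helicase gene DDX60 (0.62), the membrane protein gene IFITM1 (0.74) and IFI35 (0.78), with adjusted p of 0.137 to 0.313 in limma. OASL had 26.5 and 26.8 FPKM with the MFAP2 shRNA, compared with 13.9 and 13.9 FPKM with the scrambled shRNA, and IFITM1 had 246 and 279 FPKM against 155 and 157 FPKM. Replicates differing by at least 2 on the log2(FPKM + 1) scale were found for 1 of the 34 genes, SAMD9, and by at least 1 for 5 of them.

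**Figure D5:**
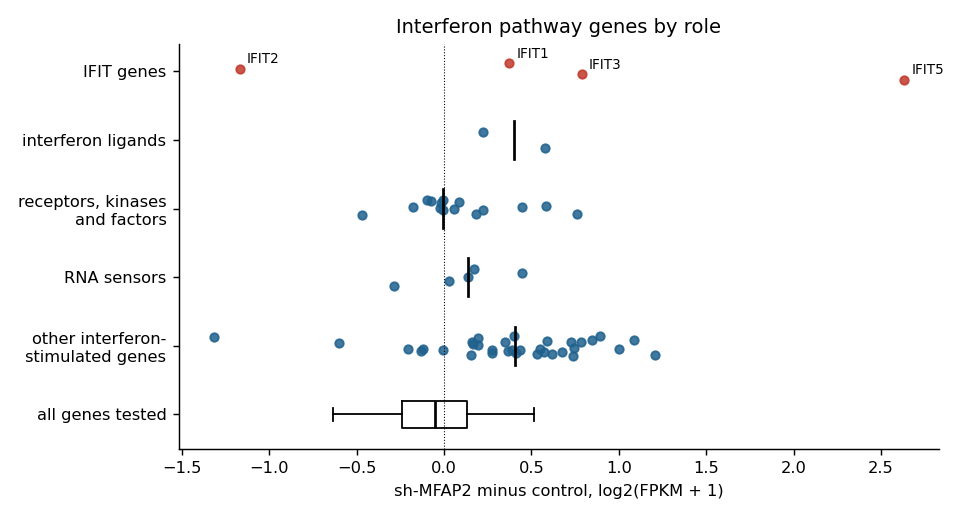
Difference between sh-MFAP2 and control on the log2(FPKM + 1) scale for tested genes of each role, 1 point per gene, with the median as a bar for the lists other than the IFIT genes, and all 9873 genes tested as a box (quartiles, with whiskers at the 5th and 95th percentiles). The other interferon-stimulated genes centre on 0.40, whereas the 4 IFIT genes run from -1.17 (IFIT2) to 2.63 (IFIT5).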

How the data were processed

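RNA of 4 AGS libraries was sequenced by the authors, who deposited 1 table of genes and 1 of transcripts. The deposited values were taken as FPKM from their behaviour, since the unit is not named. The labels give the build as hg38, and the aligner, the program that estimated the values and the annotation are not given in the sources used here. Transcript lengths are those deposited in the table. Coordinates and exons came from GENCODE 29.

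Where the average of the 4 values reached 1 FPKM, log2(FPKM + 1) entered a linear model in limma 3.58.1 (R 4.3.3; eBayes, variances following a trend), which stands in for the random variance model that the study's methods name, with Benjamini-Hochberg adjustment over all genes. The thresholds were p under 0.01 and adjusted p under 0.05. With 2 libraries against 2, an exact permutation test cannot give a two-sided p below 0.333. Transcripts were tested likewise. Alternatives were other filters, a pseudocount of 0.1, quantile normalization, scaling by the median of ratios, no variance trend, sums of transcripts, the replicate number as a block, an unadjusted threshold and leaving out each library. The fit was tested on simulated data. Reads were inferred from the spacing of low values in genes with 1 transcript over 1000 bases, where 65.3% to 66.9% of values from 0.5 to 6.5 steps fell within 0.05 of a whole step. They were not recovered gene by gene, no count test was made and no interval is given.

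The members and lists were chosen with earlier results of these data known. Genes named from lists are those with unadjusted p under 0.01 or, where none or more than 5 passed, at most the 5 with the smallest p, except that ligands were all given by their values. STAT2, BST2, SAMD9, CLDN4, MAVS, LIPA, CH25H, IFIT1B and the pseudogene IFIT6P were named after their values were seen. Protein sequences were not used here. Python 3.11.15 with pandas 2.3.3 and numpy 2.4.6 served for the tables, alignments were made with Biopython 1.88 and figures drawn with matplotlib 3.10.9.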

Additional observations from a re-analysis of the deposited data

How the results depend on the processing

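Against 27 genes called, 6 were called with no filter beyond a value above 0, 9 with a mean of at least 5 FPKM, 0 with the replicate block (722 at an unadjusted p under 0.05 in limma), 0 with each library left out in turn (555 to 2166 at an unadjusted p under 0.05) and 1214 at an unadjusted p under 0.05 alone. Beyond the number of genes or libraries tested, the cause was not tested. At an unadjusted p under 0.05 alone IFIT5 would count among those called. Under each other alternative run no IFIT gene or transcript was called, and IFIT2 and IFIT5 were not tested at a mean of at least 5 FPKM. Deviations of libraries with the same replicate number correlated at -0.0572 (9873 genes), and the numbers were not taken as a pairing. With the replicate block the standard error of IFIT1 was smaller and its adjusted p in limma was 0.640.

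When 1 library at a time was left out, where the lone library of a group was assumed to vary like the other group, the log2(FPKM + 1) difference ran from -1.51 to 2.25 for IFIT1, -2.48 to 0.146 for IFIT2 and its transcript, and -1.46 to 3.03 for IFIT3. It ran from -1.88 to 2.58 for the IFIT1 transcript ENST00000371804 and from -1.97 to 2.48 for the IFIT3 transcript ENST00000371818, which was also at -0.66 with a pseudocount of 0.1. IFIT5 kept its direction under each alternative run, with an adjusted p of 0.143 to 0.489 in limma. The median of other interferon-stimulated genes stayed between 0.32 and 0.58. With a pseudocount of 0.1 the difference between replicates 1 and 2 was -1.10 in sh-MFAP2 and 4.70 in control for IFIT2, and 3.004 in control for IFIT5, where the smaller pseudocount widens differences of low values. For IFIT3 it was -5.64 in sh-MFAP2 and 3.345 in control.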

Other observations

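The cap of mRNA decides whether IFIT1 binds it, and the enzymes that make the cap were examined with proteins known to join IFIT complexes. Of 9 such genes, 7 were tested and 0 called by limma, with 0 at an unadjusted p under 0.05. RNMT, the cap methyltransferase, had 5.30 and 4.74 FPKM with the MFAP2 shRNA, compared with 6.16 and 6.65 FPKM with the scrambled shRNA (limma, RNMT adjusted p = 0.415). RNGTT, another of the cap enzymes, had 2.24 and 4.02 FPKM against 5.99 and 3.65 FPKM, so that its groups overlapped. CMTR1, which methylates the first ribose after the cap, had 10.6 and 6.47 FPKM against 6.70 and 6.91 FPKM. EIF3E and EIF3C, subunits of the initiation factor that IFIT proteins bind, had 54.2 to 66.9 FPKM over all libraries. MAVS, the mitochondrial adaptor of RNA sensors, had 7.62 and 3.28 FPKM with the MFAP2 shRNA, compared with 1.65 and 8.16 FPKM with the scrambled shRNA, so that its replicates also lay apart.

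Among 9 neighbours of the IFIT genes on chromosome 10, 6 were tested and 0 called by limma. At an unadjusted p under 0.05, 1 was higher in sh-MFAP2, compared with 3.89% of all genes tested. This was ACTA2, the gene of smooth muscle actin, with 2.55 and 2.62 FPKM with the MFAP2 shRNA, compared with 1.24 and 1.28 FPKM with the scrambled shRNA (limma, ACTA2 adjusted p = 0.238). LIPA, which spans the IFIT region on the other strand, had 14.0 and 12.8 FPKM against 14.2 and 14.7 FPKM (limma, LIPA adjusted p = 0.682). CH25H, an interferon-induced hydroxylase gene, was listed at 0 in every library.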
